A study of Mus musculus with 12 samples.

Results

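Adult neural stem/progenitor cells (aNSPCs) were isolated from the forebrain of C57BL/6 mice aged 8 to 10 weeks, and RNA-seq was performed on cultures kept with nicotinamide adenine dinucleotide hydrate (NAD+). The comparison described here set aNSPCs under differentiation conditions with NAD+ (D_NAD, n = 3) against aNSPCs under proliferating conditions with NAD+ (p_NAD, n = 3), 6 of the 12 samples of the series. The proliferating medium held B27, EGF and FGF-2. For differentiation the study's methods give 1 µM retinoic acid and 5 µM forskolin, stated for the staining assays and taken here to hold for the sequenced cultures too, and NAD+ was at 1 mM in both groups. The other 6 samples, used only where stated, were the same pair of conditions without NAD+ (D_ctrl and p_ctrl, n = 3 each). The tissue field read aNSC and the treatment field read untreated for all 12 samples, so the groups followed the sample titles. How long the sequenced cultures were exposed, whether EGF and FGF-2 were withdrawn upon differentiation, and whether replicates came from separate animals were not given in the sources used here. The study calls its 3 samples a group biological repeats, and p-values measure the spread between these samples.

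Neural stem/progenitor cells divide in the presence of EGF and FGF-2, which act through receptor tyrosine kinases and the ERK cascade, and they keep Sox2, Nestin and Notch target genes on. Retinoic acid binds nuclear receptors that sit on repeated half-sites in the DNA, and forskolin activates adenylyl cyclase, which raises cAMP and acts through CREB. On leaving the cell cycle such cells can become neurons, astrocytes or oligodendrocytes. NAD+ is a cofactor of glycolysis and respiration and a substrate of sirtuins and PARPs.

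Each sample was deposited as FPKM per gene (fragments per kilobase, relative to all fragments mapped), a level corrected for gene length. Of 55401 genes, 12870 reached a mean of 1 FPKM over the 6 columns and were tested as the difference D_NAD minus p_NAD on the log2(FPKM + 0.1) scale. A gene was called at an adjusted p under 0.05 (limma). The read depth of the samples is unknown. The p_NAD samples expressed the markers that define aNSPCs, with Sox2 at 219, 217 and 213 FPKM and Nes at 62.5, 97.0 and 86.5 FPKM. Lists of microglial, endothelial, and mural or fibroblast markers had no gene above the filter, and no single value in them exceeded 0.78 FPKM. Of 6 mature neuron markers only Syp reached the filter, at 1.92 to 2.33 FPKM in D_NAD and 1.93 to 2.51 FPKM in p_NAD, and the list had a summed level of 3.22 to 4.09 FPKM in D_NAD and 3.17 to 3.66 FPKM in p_NAD. Across genes, replicates correlated at r = 0.970 to 0.971 within D_NAD and 0.963 to 0.977 within p_NAD, against 0.761 to 0.803 between the groups. Sample p_NAD_1 stood somewhat apart within its group, with more astrocyte and less cell cycle mRNA, as given beside the genes below.

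The scaling between the 2 deposited tables decided how many genes were called in each direction, so it is given before any gene. As deposited, 2690 genes (20.9%) were called higher in D_NAD and 6617 genes (51.4%) were called lower, and the median difference of all tested genes was -0.37. With median-ratio scaling this median was 0.00 and the calls were 4394 higher and 4386 lower, so that calls in the 2 directions were nearly equal in number, whereas 28.9% of them were higher as deposited. Under the other 4 scalings that share ranged from 23.5% with equal FPKM sums to 75.9% when 16 commonly used reference genes were held equal. Those reference genes were themselves uneven, 10 of 16 being called lower as deposited, among them Ppia, Hprt and Actb. A direction between D_NAD and p_NAD is therefore stated below only for genes with the same call under all 6 scalings. This left 2237 genes higher (17.4%) and 2173 genes lower (16.9%). Adding a size limit of more than 1 on the log2 scale to the deposited values left 1131 genes higher (8.79%) and 2737 lower (21.3%). List medians are given on the deposited scale and are to be read against the -0.37 of all tested genes. On deposited values the groups did not overlap in 77.0% of tested genes, with D_NAD higher in 2929 and p_NAD higher in 6976. Separate groups were therefore common and say little on their own.

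**Figure D1:**
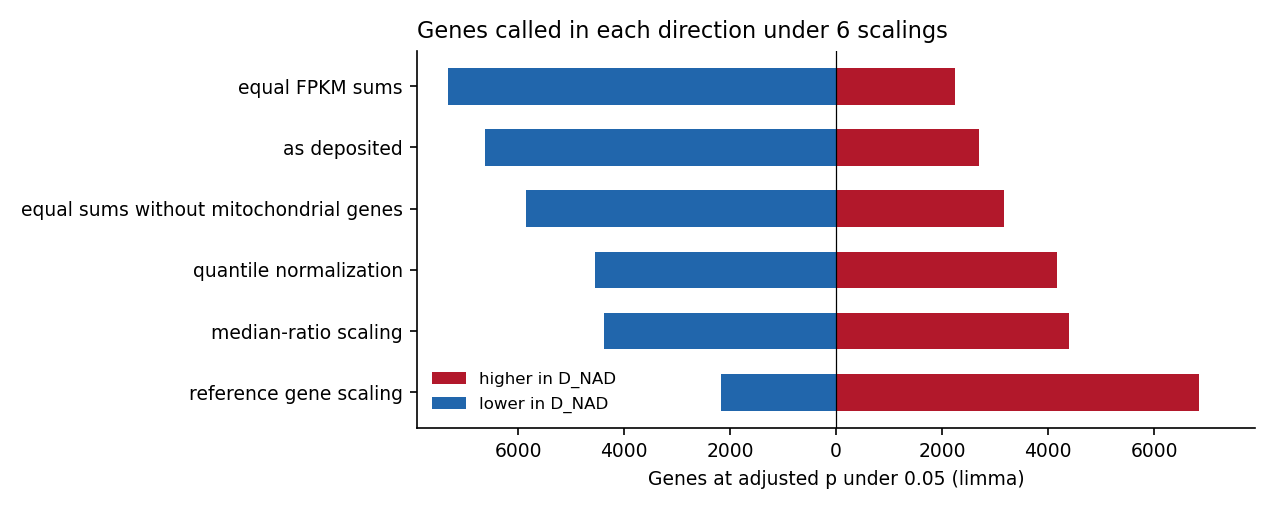
Number of genes called at an adjusted p under 0.05 (limma) in each direction under 6 scalings of the same 6 samples, with genes lower in D_NAD to the left and genes higher in D_NAD to the right. The bars run from 2248 higher and 7312 lower with equal FPKM sums to 6854 higher and 2173 lower with reference gene scaling.

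The mitochondrially encoded and the cytosolic ribosomal protein genes took unlike shares of the deposited sums in the 2 groups. The 13 mitochondrially encoded protein genes took 28.1 to 31.6% of the FPKM sum in D_NAD and 15.9 to 17.2% in p_NAD, and the groups did not overlap. The cytosolic ribosomal protein genes, picked here by symbol whatever their annotated type, took 1.78 to 2.01% in D_NAD and 4.82 to 5.25% in p_NAD, again without overlap. These shares need no scaling between samples, since each is taken within 1 sample. The FPKM sums were 331362 to 349649 in D_NAD and 308828 to 314683 in p_NAD. With sums made equal without the mitochondrial genes, the median of all tested genes was -0.25 and 35.1% of calls were higher.

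**Figure D2:**
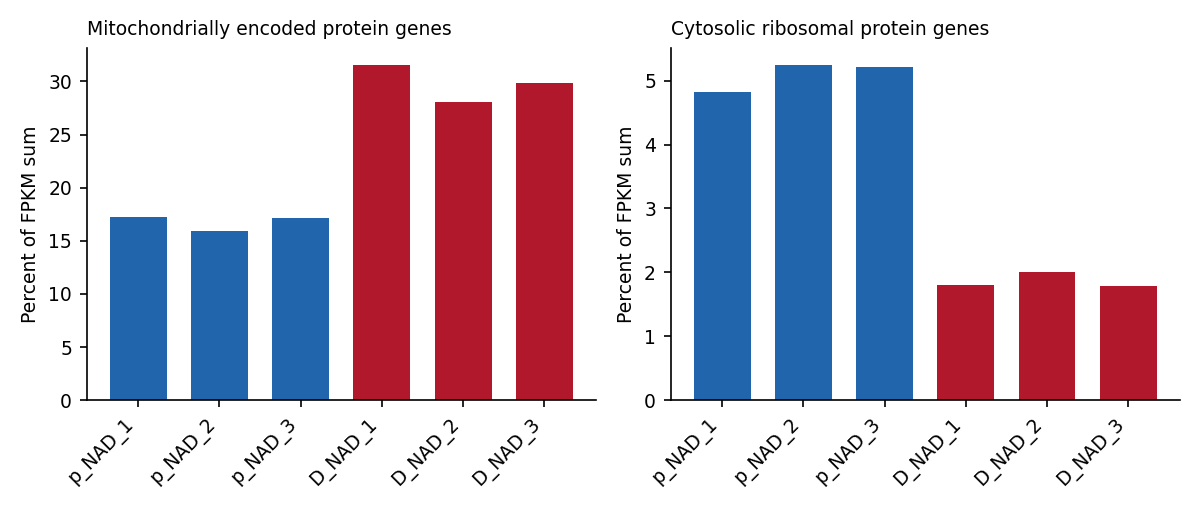
Percent of each sample's FPKM sum taken by the 13 mitochondrially encoded protein genes (left) and by the cytosolic ribosomal protein genes (right), 1 bar a sample. All 3 D_NAD bars are above all 3 p_NAD bars on the left and below them on the right.

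Cell cycle genes fell together upon differentiation with NAD+. All 34 tested genes of DNA replication and S phase were lower under all 6 scalings, with a median difference of -3.30, and 29 of 30 genes of G2/M and mitosis were lower under all 6 scalings, with a median of -5.11. In bulk RNA, fewer cells of a kind and less RNA per cell cannot be told apart. Mki67, the gene of the Ki67 proliferation antigen, was at 0.51, 0.5 and 0.35 FPKM in D_NAD and at 39.3, 45.4 and 44.4 FPKM in p_NAD. All D_NAD samples were far below all p_NAD samples, a 94.9-fold difference of the means (log2 difference -6.29 ± 0.14 SE, limma adjusted p = 1.57e-06). Among genes above 0 in all 6 samples the largest fall was that of Pbk, a mitotic kinase, from 34.7, 53.3 and 52.3 FPKM to 0.17, 0.32 and 0.21 FPKM (-7.13 ± 0.23). Ube2c, the ubiquitin-conjugating enzyme of the anaphase-promoting complex, and Cdc20, its activator, fell by 6.68 and 6.53 on the log2 scale.

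The other genes among the 12 largest falls were Pclaf (-6.27), Ccnb2 (-6.14), Ccnb1 (-6.14), Hmmr (-6.12), Ckap2l (-6.05), Knstrn (-6.02), Kif2c (-5.94) and Melk (-5.89), which encode cyclins, spindle and kinetochore proteins, a PCNA-binding factor and a kinase. Cdk1, the kinase that drives entry into mitosis, was at 0.45, 0.42 and 0.53 FPKM against 11.8, 15.8 and 14.8 FPKM (-4.65 ± 0.14). Among S phase genes, Mcm5, a subunit of the replicative helicase, fell from 20.7, 29.4 and 27.9 FPKM to 0.24, 0.4 and 0.39 FPKM (-5.88 ± 0.20), and Uhrf1, which guides maintenance DNA methylation, fell by 5.73. Pcna, the sliding clamp, also serves DNA repair and kept 19.0 to 21.0 FPKM in D_NAD (-2.39 ± 0.12). The lowest p_NAD value was that of p_NAD_1 for Mki67, Pbk, Cdk1 and Mcm5. The mitotic checkpoint kinase gene Bub1b was the exception of its list: it stood at 10.5, 10.8 and 11.8 FPKM against 16.7, 18.9 and 18.7 FPKM, a difference of -0.71 that was not called under every scaling. The related gene Bub1 was at 0.09 to 0.14 FPKM against 8.77 to 12.3 FPKM. Ska1, a kinetochore gene, was listed at 0 in all 3 D_NAD samples and at 3.04, 4.02 and 3.41 FPKM in p_NAD.

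**Figure D3:**
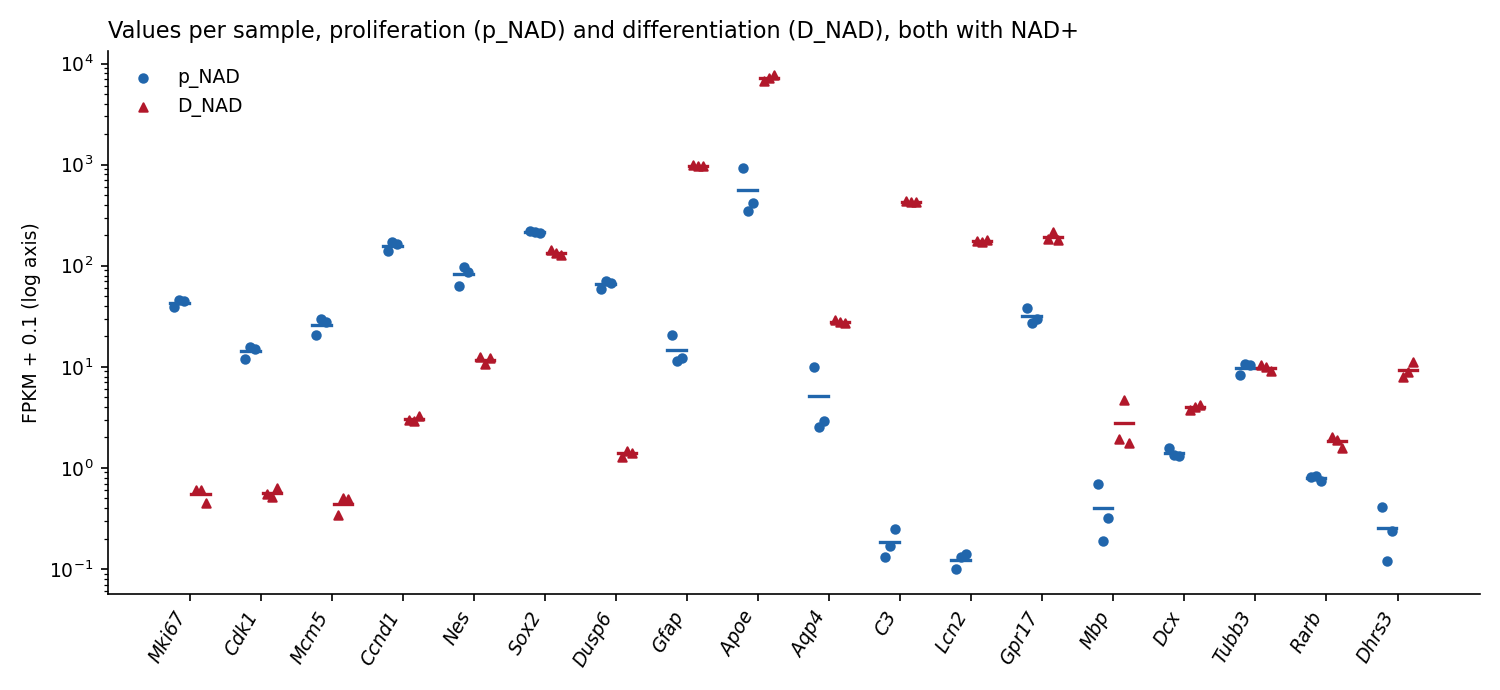
FPKM + 0.1 (log axis) of 18 genes in each p_NAD (circles) and D_NAD (triangles) sample, with a bar at each group mean. The groups are separate for every gene shown except Tubb3, and p_NAD_1, the left circle of each gene, lies above the other p_NAD samples for Gfap, Apoe, Aqp4 and Mbp.

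Promoters of these genes are shown because the G2/M genes had the lowest median of all lists and because cell cycle genes are known for 2 promoter elements, the CHR (TTTGAA) and the CCAAT box. The windows came from RefSeq on GRCm38.p6, covered 250 bases before to 50 after each gene start, and were searched on both strands. Of the 30 G2/M genes, 23 had a window. The CHR was found in 18 of these 23 (78.3%) and in 20.2% of all 27025 genes, the CCAAT box in 21 of 23 (91.3%) and in 41.1% of all genes, and both together in 18 of 23 (78.3%) and in 8.97% of all genes. Among tested genes with a window the CHR was found in 13.5% and the CCAAT box in 43.9%. The list was chosen as a list of cell cycle genes, many of them classical carriers of these elements. A match is a description, not a site. The stretches below run 5′ to 3′ on the strand of the gene, with every match to either element, read on either strand, in capitals.
Cdk1, chr10:69352913-69353002, minus strand: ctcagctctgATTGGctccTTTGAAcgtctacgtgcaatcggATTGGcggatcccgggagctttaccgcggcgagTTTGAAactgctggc
Cdc20, chr4:118437344-118437403, minus strand: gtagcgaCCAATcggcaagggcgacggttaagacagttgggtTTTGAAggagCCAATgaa
Ube2c, chr2:164769834-164769928, plus strand: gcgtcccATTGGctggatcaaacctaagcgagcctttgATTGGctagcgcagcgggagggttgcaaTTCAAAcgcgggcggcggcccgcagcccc
Mki67, chr7:135716464-135716569, minus strand: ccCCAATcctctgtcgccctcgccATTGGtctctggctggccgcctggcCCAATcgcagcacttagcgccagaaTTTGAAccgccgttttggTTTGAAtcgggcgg
Ccnb1, chr13:100786536-100786591, minus strand: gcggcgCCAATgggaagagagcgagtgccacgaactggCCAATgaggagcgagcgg
Cdk1, Cdc20, Ube2c and Mki67 hold both elements in these stretches, and Ccnb1 holds CCAAT boxes but no TTTGAA in its window. Ccnb1 fell by 6.14 on the log2 scale, and Bub1b, whose window holds both elements, differed by -0.71.

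Of the 34 S phase genes, 28 had a window. Of these, 10 (35.7%) held an E2F site spelled TTTCCCGC or TTTGGCGC, against 1.80% of all genes and 3.70% of tested genes with a window. Mcm5 and Mcm6, subunits of the same helicase, are shown with the site in capitals.
Mcm5, chr8:75109344-75109384, plus strand: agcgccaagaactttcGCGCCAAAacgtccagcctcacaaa
Mcm6, chr1:128359736-128359825, minus strand: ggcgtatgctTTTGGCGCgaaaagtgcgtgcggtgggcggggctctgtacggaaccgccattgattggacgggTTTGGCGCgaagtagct
Mcm6, with a pair of sites in this stretch, fell by 3.18 on the log2 scale and Mcm5, with 1, by 5.88.

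Genes that link growth factors to the cell cycle fell as well. Ccnd1, the D-type cyclin that mitogens induce, was at 2.89, 2.82 and 3.13 FPKM in D_NAD and at 139, 171 and 164 FPKM in p_NAD, a 53.6-fold difference (-5.69 ± 0.10, limma adjusted p = 1.02e-06). Ccnd2 fell by 5.38, whereas Ccnd3 was at 4.57, 7.03 and 2.59 FPKM against 6.38, 5.78 and 7.06 FPKM, which overlapped. The CDK inhibitors did not move as 1 group. Cdkn1b (p27) was higher, at 19.8 to 22.4 FPKM against 16.3 to 17.4 FPKM (0.35 ± 0.07), and Cdkn2c, Cdkn2d and Cdkn2a were lower by 2.86, 1.51 and 1.26. Cdkn1a (p21) had a difference of -0.94 and Cdkn1c (p57) of -0.66, neither called under all 6 scalings. The stress-induced growth arrest genes Gadd45b and Gadd45g rose by 2.14 and 1.52.

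Among the 20 tested genes of EGF and FGF receptors and ERK feedback, 11 were lower and 1 was higher under all 6 scalings, with a median of -1.25. Dusp6, the phosphatase that ERK induces and that dephosphorylates ERK, was at 1.19, 1.38 and 1.31 FPKM against 58.5, 70.4 and 67.8 FPKM, a 50.7-fold difference (-5.56 ± 0.10). The feedback inhibitor genes Spry4, Spry1 and Spry2 fell by 4.21, 2.93 and 1.67, and the ETS factors Etv5, Etv4 and Etv1 fell by 3.01, 2.56 and 1.33. The receptors themselves did not share this fall. Egfr was at 23.9, 22.5 and 23.2 FPKM against 25.4, 21.6 and 21.5 FPKM, and Fgfr1 and Fgfr3 had differences of 0.12 and 0.01, so that the groups overlapped for all 3 receptor genes. Fgfr2 was the member that rose (1.23 ± 0.09).

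Of 25 genes of neural stem cell identity, 21 were tested, and 7 were lower and 5 higher under all 6 scalings, with a median of -0.68. Over all tested genes 16.9% were lower and 17.4% higher. Nes, the intermediate filament of neural progenitors, was at 12.3, 10.5 and 12.04 FPKM against 62.5, 97.0 and 86.5 FPKM (-2.79 ± 0.17, limma adjusted p = 1.97e-05). Tnc, the matrix glycoprotein tenascin C of the stem cell niche, fell by 5.48 and Fabp7, a radial glial lipid carrier, by 1.82. Sox2 was at 142, 134 and 129 FPKM against 219, 217 and 213 FPKM, with all D_NAD samples lower (-0.68 ± 0.06), but with the reference genes held equal the difference was 0.12. Slc1a3, Cd9, Sox9, Vim and Msi1, which astrocytes or other glia also express, were higher by 0.36 to 0.73.

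The Notch pathway list divided in the same way. Of 16 tested genes, 6 were lower and 4 higher under all 6 scalings, with a median of -0.53. Over all tested genes 16.9% were lower and 17.4% higher. The Notch target genes Nrarp, Hes5 and Hes1 fell by 3.97, 2.86 and 1.93, Hes6, a relative that antagonises Hes1, by 2.11, and the ligand gene Jag1 by 2.19. Hes5 shares 433 of its 1363 exon bases with an antisense transcript that was also lower in D_NAD, and use of strand in counting was not stated, so their reads cannot be told apart. The receptor gene Notch2 and the ligand gene Dner, active in glial and neuronal contacts, rose by 0.81 and 1.05. Among 14 tested BMP and ID genes 4 were lower, including the BMP targets Id3 (-1.97) and Id1 (-1.72), and 3 were higher, including Id4 (1.80) and the receptor gene Bmpr1b (1.19). These counts rest on few genes, and that of higher genes was near the 17.4% of all tested genes.

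Astrocyte genes rose, with Gfap foremost. Of 29 tested genes of astrocyte identity 17 were higher and 2 lower under all 6 scalings, with a median of 0.82, and the summed level of the list was 14078 to 14728 FPKM in D_NAD and 3079 to 4210 FPKM in p_NAD. Gfap, the intermediate filament of astrocytes, was at 999, 965 and 967 FPKM in D_NAD and at 20.5, 11.3 and 12.2 FPKM in p_NAD, a 66.7-fold difference (6.10 ± 0.22, limma adjusted p = 4.71e-06). Agt, the angiotensin precursor that astrocytes secrete, was at 1889, 1697 and 1536 FPKM against 126, 80.4 and 80.8 FPKM (4.18 ± 0.19). Apoe, the lipid carrier of the brain, reached 6688, 7261 and 7639 FPKM against 927, 347 and 416 FPKM (3.81 ± 0.35). In each of these genes p_NAD_1 was the highest p_NAD sample and still below every D_NAD sample.

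Aqp4, the water channel of astrocyte endfeet, was at 28.8, 27.5 and 27.3 FPKM against 9.95, 2.42 and 2.82 FPKM (2.73 ± 0.50), and Slc1a2, the main glutamate transporter, rose by 1.96. Clu and Gja1, encoding clusterin and connexin 43, rose by 3.21 and 2.64. The rise did not extend to every marker. S100b was at 104, 118 and 99.3 FPKM against 171, 135 and 134 FPKM and was not called under all 6 scalings, Aldh1l1 had a difference of -0.13 with overlapping groups, and Kcnj10, a potassium channel of mature astrocytes, and Nfib, a gliogenic transcription factor, fell by 1.38 and 1.44. Without p_NAD_1, 19 genes of this list were called higher and 6 lower, as deposited, against 18 and 6 with it.

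The acute-phase genes of reactive astrocytes included C3 and Lcn2, the largest rises among all tested genes. Of 16 tested genes 15 were higher under all 6 scalings and none was lower, with a median of 2.77, and the remaining gene, Timp1, had overlapping groups. C3, the central complement component, was at 436, 429 and 425 FPKM in D_NAD and at 0.03, 0.07 and 0.15 FPKM in p_NAD (11.25 ± 0.22, limma adjusted p = 1.26e-06). Lcn2, an iron-siderophore binding protein of inflamed glia, was at 176, 173 and 178 FPKM in D_NAD, and in p_NAD it was listed at 0, 0.03 and 0.04 FPKM (10.49 ± 0.13). Such p_NAD values are a few steps of the rounding at 0.01, so the size of these differences depends on the 0.1 added and the separation of the groups does not. The p_NAD mean of C3 of 0.0833 FPKM stands against a D_NAD mean of 429.9 FPKM.

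Steap4, a metalloreductase, and Cxcl10, a chemokine induced by interferons and NF-kB, rose by 7.14 and 6.95, S1pr3 and Osmr, receptors for sphingosine-1-phosphate and oncostatin M, by 5.32 and 4.24, and the protease inhibitor Serpina3n by 3.30. Factors that act upstream of acute-phase genes rose less: Cebpb by 2.15, Cebpd by 1.86, Nfkbia by 1.58 and Stat3 by 0.44. The genes of the interferon response and MHC class I numbered 18 tested, of which 12 were higher and none lower under all 6 scalings, with a median of 0.94. The guanylate-binding protein genes Gbp6 and Gbp2 rose by 4.51 and 3.65, and the MHC class I heavy chain gene H2-D1 rose from 18.5, 16.6 and 16.2 FPKM to 107, 100.1 and 94.7 FPKM (2.55 ± 0.08). Reads of H2 and Gbp genes can be split among near-identical copies, so single members of those families are uncertain. Stat2 and Isg15 overlapped between the groups. Both lists were unchanged in their counts without p_NAD_1, with 15 higher and none lower in the first and 13 higher and 1 lower in the second, as deposited.

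**Figure D4:**
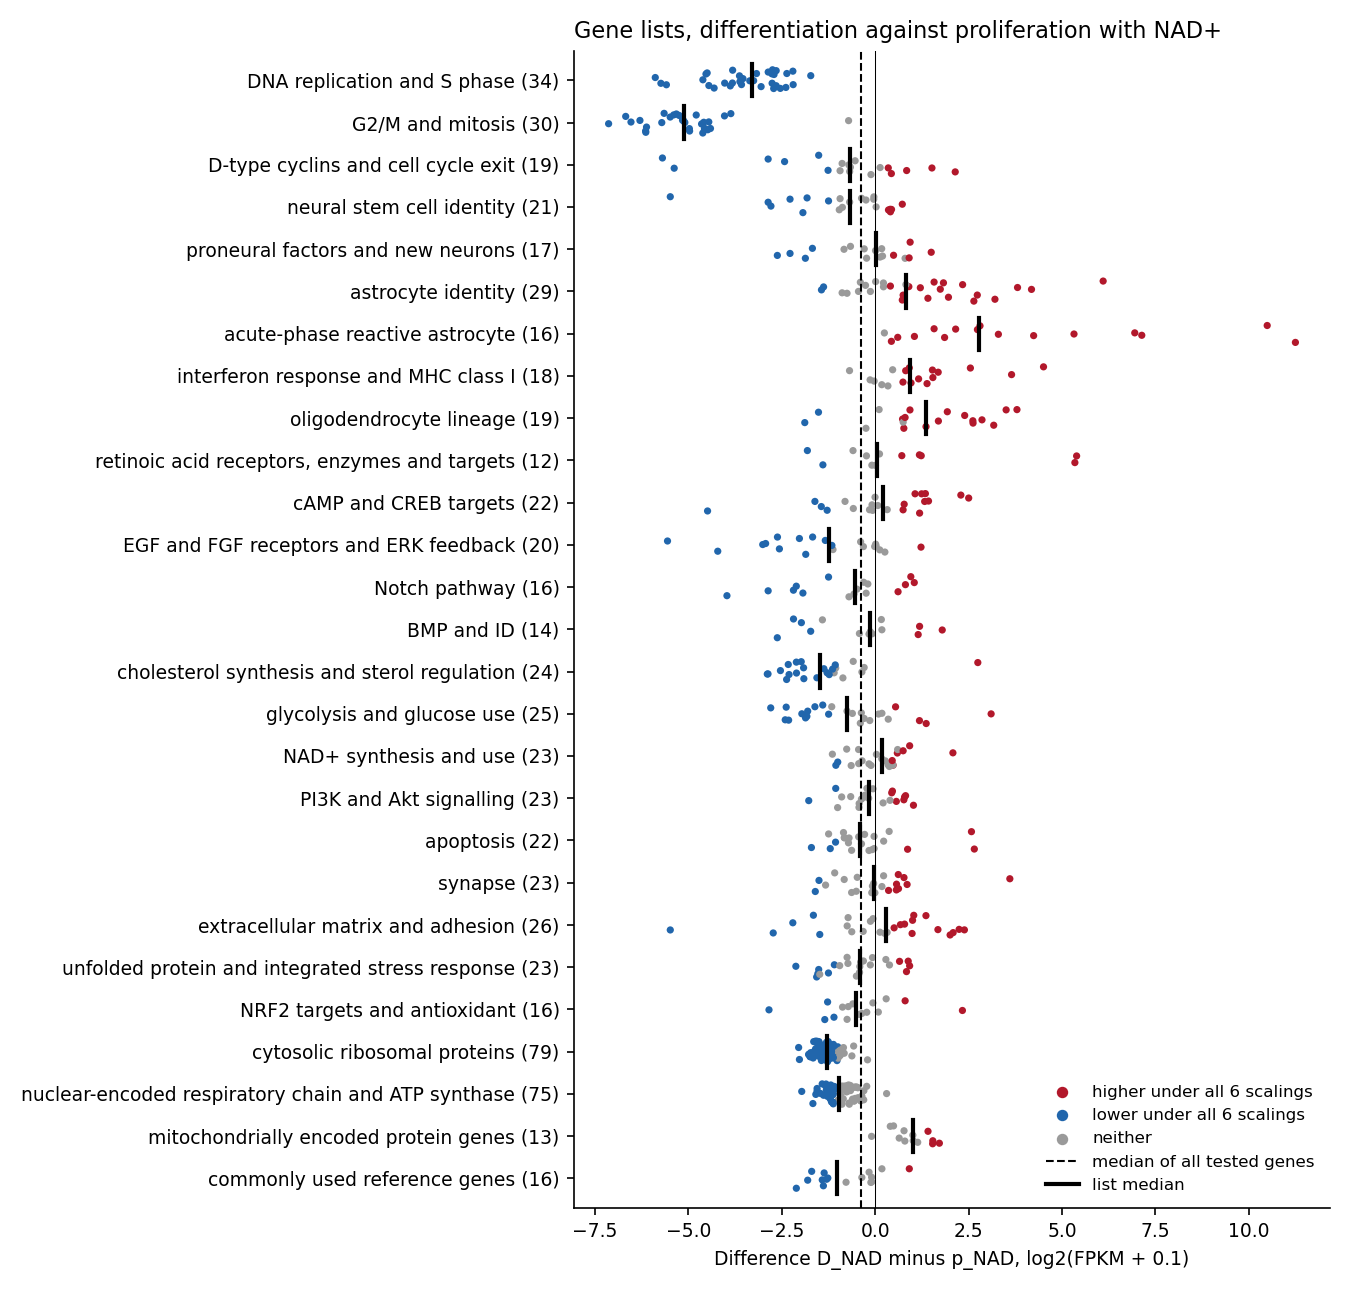
Difference D_NAD minus p_NAD on the log2(FPKM + 0.1) scale (x axis) for each tested member of 27 gene lists, with the number tested in parentheses. Points are red or blue where the gene was called higher or lower under all 6 scalings and grey otherwise, the thick bar is the list median, and the dashed line is the median of all tested genes at -0.37. S phase and G2/M genes lie furthest left and acute-phase genes furthest right.

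The remaining genes among the 12 largest rises, counted over genes above 0 in all 6 samples, included 6 genes outside the lists. Lgi4, a secreted protein of myelinating glia, was at 27.7, 24.6 and 30.6 FPKM against 0.19 to 0.27 FPKM (6.42 ± 0.13), and it shares 2059 of its 4584 exon bases with Fxyd3 on the opposite strand. Fxyd3 was listed at 0 in all p_NAD samples and at 5.25, 5.71 and 5.46 FPKM in D_NAD. Fxyd1, a regulator of the sodium pump, rose by 6.20, Gpr179, an orphan receptor, by 6.08, Slc22a4, an ergothioneine and carnitine transporter, by 6.07, and Icosl, a costimulatory ligand, by 5.76. Gm28035 (5.38) is annotated over the exons of Lrrc8a and Phyhd1 and cannot be separated from them. None of these 6 genes exceeded 1.27 FPKM in p_NAD. Separate groups were a condition for naming them and are no result.

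Most oligodendrocyte lineage genes rose, and Olig1 and Olig2 fell. Of 19 tested genes of the lineage 14 were higher and 2 lower under all 6 scalings, with a median of 1.36. Olig1 and Olig2 are lineage factors also found in proliferating progenitors. Olig2 was at 105, 93.5 and 104 FPKM against 265, 305 and 297 FPKM (-1.52 ± 0.08). Pdgfra, the growth factor receptor of oligodendrocyte progenitors, was at 4.14, 3.71 and 3.95 FPKM against 2.41, 1.86 and 2.59 FPKM (0.77 ± 0.14). Gpr17, a receptor of committed precursors, rose from 38.1, 27.0 and 29.8 FPKM to 185, 214 and 179 FPKM (2.62 ± 0.14), and Enpp6 and Bcas1, both of newly formed oligodendrocytes, rose by 3.80 and 2.40. Mbp, myelin basic protein, was at 1.85, 4.59 and 1.68 FPKM against 0.6, 0.09 and 0.22 FPKM (2.86 ± 0.58). D_NAD_2 was the highest sample for Mbp, Gpr17, Enpp6 and Bcas1, and all D_NAD samples were above all p_NAD samples for each of them. Such separation with D_NAD higher was found in 2929 tested genes. Without p_NAD_1, 15 genes of the list were called higher and 2 lower, as deposited.

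Neuronal genes moved in both directions. Of 37 genes for proneural factors and new neurons 17 reached the filter, and 4 were higher and 4 lower under all 6 scalings, with a median of 0.01. With so few genes, both counts were not far above the shares of all tested genes (17.4% higher and 16.9% lower). Dcx, the microtubule protein of migrating neuroblasts, was at 3.61, 3.9 and 4.08 FPKM against 1.47, 1.24 and 1.2 FPKM (1.50 ± 0.12), and Ncam1, Myt1 and Elavl3 rose by 0.94, 0.91 and 0.49. Stmn1, Gap43 and Sox11, which proliferating progenitors or growing neurites express, fell by 2.62, 1.87 and 1.68. Tubb3, the antigen of the Tuj1 antibody, was at 10.3, 9.85 and 9.01 FPKM against 8.23, 10.5 and 10.4 FPKM, which overlapped. Stmn2, Neurod1, Eomes and Tbr1 did not reach the filter, and no value of them exceeded 0.46 FPKM. Among 23 tested synapse genes 8 were higher, above the share of all tested genes, and 2 lower, below it. Gria1, an AMPA receptor subunit that glial progenitors also carry, rose most, from 7.4, 3.08 and 2.65 FPKM to 46.5, 49.4 and 51.2 FPKM (3.61 ± 0.36).

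Known targets of the inducers of differentiation moved in both directions. In this list and the cAMP list below, the counts of lower genes were near the 16.9% of all tested genes. The counts of higher genes were above the 17.4% of all tested genes. Of the 28 genes of this list, retinoic acid receptors, enzymes and targets, 12 were tested. Of these, 5 were higher and 2 lower under all 6 scalings, with a median of 0.06. Dhrs3, a retinal reductase that retinoic acid induces, was at 7.86, 8.77 and 11.2 FPKM against 0.31, 0.02 and 0.14 FPKM (5.35 ± 0.43). Rarb, a receptor and direct target, was low but separate, at 1.93, 1.78 and 1.47 FPKM against 0.72, 0.74 and 0.64 FPKM (1.19 ± 0.17). It shares 1793 of its 5265 exon bases with Top2b on the opposite strand, whose mean was lower in D_NAD. The degrading enzyme genes Cyp26a1 and Cyp26b1, often used as readouts of retinoic acid, were at or below 0.16 FPKM in every sample. Rara, another receptor, fell by 1.81.

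The Rarb promoter is shown because it carried the direct repeat with 5 bases between the half-sites (DR5) that retinoic acid receptors bind. A DR5 was found in 2 of the 22 genes of the list with a window (9.09%), Rarb and Cyp26a1, and in 31 of all 27025 genes (0.115%). The repeat with its spacer is in capitals.
Rarb, chr14:16575497-16575546, minus strand: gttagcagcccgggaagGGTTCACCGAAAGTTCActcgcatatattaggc
Of these carriers, Cyp26a1 was listed at 0 in 5 of the 6 samples.

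Of 31 cAMP and CREB target genes 22 were tested, and 10 were higher and 4 lower under all 6 scalings, with a median of 0.20. The immediate early genes Junb, Nr4a3 and Fos rose by 2.50, 2.29 and 1.43, and Sik1, a kinase that feeds back on CREB coactivators, by 1.35. Others fell, Arc, a synaptic immediate early gene, from 5.39, 7.98 and 8.19 FPKM to 0.29, 0.18 and 0.2 FPKM (-4.48 ± 0.22), and Egr1 and Dusp1 by 1.61 and 1.28. Crem, whose short repressor form is a classical response to cAMP, was at 1.66, 2.08 and 1.61 FPKM against 1.77, 1.83 and 2.06 FPKM, which overlapped. The full cAMP response element TGACGTCA was found in 4 of 22 promoters of the list (18.2%). It was found in 2.03% of all genes and in 3.74% of tested genes with a window. One carrier, Scg2, a secretory granule protein, rose by 1.33, and another, Dusp1, fell.
Scg2, chr1:79440076-79440106, minus strand: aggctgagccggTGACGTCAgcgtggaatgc
Dusp1, chr17:26508597-26508627, minus strand: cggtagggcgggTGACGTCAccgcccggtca
These 2 promoters hold the same element.

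Most genes of cholesterol synthesis fell. Of 24 tested genes of cholesterol synthesis and sterol regulation, 17 were lower and 1 was higher under all 6 scalings, with a median of -1.46. Hmgcs1, an early enzyme of the pathway, was at 83.4, 78.3 and 64.7 FPKM against 183, 239 and 248 FPKM (-1.56 ± 0.15), and Fdps, Idi1 and Insig1 fell by 2.89, 2.53 and 2.10. Abca1, which exports cholesterol, was the member that rose, from 28.1, 10.3 and 11.5 FPKM to 91.5, 103 and 108 FPKM (2.75 ± 0.37). The sterol element TCACNCCAC was found in 1 of 18 promoters of the list (5.56%), Hmgcs1, and in 1.44% of all genes.
Hmgcs1, chr13:119690201-119690236, plus strand: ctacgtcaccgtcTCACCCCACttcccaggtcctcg

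Of 25 tested entries of glycolysis and glucose use 11 were lower and 4 higher under all 6 scalings, with a median of -0.75. The count of higher entries was near the 17.4% of all tested genes, and that of lower ones above the 16.9%. Ldha, which regenerates NAD+ from NADH by making lactate, was at 21.0, 34.4 and 20.1 FPKM against 169, 180 and 161 FPKM (-2.79 ± 0.20), and Hk2, Tpi1, Eno1 and Pkm fell by 2.41, 2.38, 2.32 and 1.96. The enzymes that rose were Eno3 (3.10), Pygb (1.37), Pfkm (1.19) and the transporter Slc2a3 (0.55), so that isozymes of 1 step moved apart. Gapdh was at 7.81 to 8.4 FPKM against 6.68 to 7.48 FPKM, below Ldha in both groups. It has many pseudogene copies, which counting of unique reads can affect. Of 79 tested ribosomal protein genes 67 were lower and none higher under all 6 scalings (median -1.29). For the nuclear-encoded respiratory chain and ATP synthase 34 of 75 were lower and none higher (median -0.97).

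The mitochondrially encoded genes had a median of 1.01, and 12 of 13 were called higher as deposited, but only mt-Nd4, mt-Nd5, mt-Nd6 and mt-Atp6 were higher under all 6 scalings. mt-Nd5 was at 7841, 6988 and 7103 FPKM against 2820, 2314 and 2406 FPKM (1.54 ± 0.11). mt-Nd1 was at 5539, 4889 and 5386 FPKM against 5712, 5514 and 5653 FPKM, which overlapped, and it was not called. mt-Atp6 was at 5930, 1322 and 1416 FPKM in D_NAD, its first sample being apart from the other two, and it shares 43 bases with mt-Atp8.

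Of 33 genes of NAD+ synthesis and use 23 entries were tested, and 6 were higher and 2 lower under all 6 scalings, with a median of 0.18. In this list and the PI3K and Akt list below, lower genes were below the 16.9% of all tested genes. Higher genes were above the 17.4% of all tested genes in both lists. The genes that fell were Nampt, the rate-limiting enzyme of NAD+ salvage, at 4.59, 5.45 and 4.9 FPKM against 10.2, 10.1 and 9.9 FPKM (2.02-fold lower), and Parp1, the main consumer of NAD+ in DNA repair, at 14.6, 15.9 and 15.0 FPKM against 27.9, 33.2 and 33.7 FPKM (-1.05 ± 0.09). Cd38, an NAD+ glycohydrolase, rose from 0.32, 0.45 and 0.28 FPKM to 1.62, 1.48 and 2.35 FPKM (2.08 ± 0.26), and Nmnat2, which completes NAD+ synthesis in axons, rose by 0.92. Sirt1 was at 4.27 to 4.57 FPKM against 3.67 to 4.85 FPKM, which overlapped. Of 23 tested genes of PI3K and Akt signalling 7 were higher and 2 lower, and the 2 lower were Akt1, at 23.4, 23.7 and 22.3 FPKM against 46.0, 49.2 and 49.2 FPKM (-1.05 ± 0.06), and the regulatory subunit gene Pik3r3 (-1.78). The receptor gene Igf1r rose by 1.03.

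Among 22 tested apoptosis genes 3 were higher and 3 lower, below the shares of all tested genes (17.4% higher and 16.9% lower). The counts of higher genes in the stress response and NRF2 lists below were also near or below this share. The BH3-only gene Bmf and the death receptor gene Fas rose by 2.65 and 2.58, and the effector gene Bax fell from 77.1, 70.8 and 72.3 FPKM to 36.4, 37.2 and 32.1 FPKM (-1.06 ± 0.08). Of 26 tested extracellular matrix and adhesion genes 12 were higher, led by Tnr, tenascin R of myelinating glia (2.39), Vcam1 (2.25), Col6a2 (2.09) and Sparc (2.01), and 5 were lower, led by Tnc. The count of lower matrix and adhesion genes was near the 16.9% of all tested genes. The unfolded protein and integrated stress response list had 4 higher and 6 lower of 23, with Atf4 (-1.51) and the serine pathway genes Psat1 (-1.56) and Phgdh (-1.09) among the latter. Of 16 tested NRF2 target and antioxidant genes 2 were higher, Slc7a11 (2.34), the cystine transporter, and Fth1 (0.80), and 4 were lower, led by Txn1, thioredoxin (-2.84).

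The response to differentiation was then compared with the response without NAD+ (D_ctrl against p_ctrl). The pairs share no samples, and the median difference of all genes was -0.21 without NAD+. Across the 12584 genes tested in both, the responses had r = 0.927, which is a description across genes that are not independent. Of 3733 genes called with NAD+ at more than 1 on the log2 scale and also tested without it, 3701 had the same direction and 3486 were also called. The difference between the responses, tested as (D_NAD minus p_NAD) minus (D_ctrl minus p_ctrl) in 1 limma fit of all 12 samples, was called for 42 genes in the positive direction (0.325%) and 56 in the negative direction (0.433%) of 12928 tested, and 2423 genes had an unadjusted p under 0.05. Its median over all genes was -0.16. The share of calls that were positive was 42.9% as deposited and 81.1% with median-ratio scaling, and 22 genes were positive and 16 negative under all 6 scalings.

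In 4 acute-phase genes, Lcn2, C3, Cxcl10 and Cp, the rise with NAD+ was called larger than that without it. Lcn2 had a difference between responses of 3.01 ± 0.29 (limma adjusted p = 0.00181): its D_NAD samples were at 176, 173 and 178 FPKM and its D_ctrl samples at 27.6, 21.7 and 25.7 FPKM, while no proliferating sample exceeded 0.08 FPKM. It was called in 24 of 25 alternatives, and its adjusted p from limma reached 0.151 in the other. C3 was at 436, 429 and 425 FPKM in D_NAD and at 90.9, 81.0 and 83.7 FPKM in D_ctrl, with p_NAD and p_ctrl at 0.37 FPKM or less. Its difference of 2.79 ± 0.49 had a limma adjusted p of 0.0319, which ranged from 1.25e-05 to 0.0917 over 25 alternatives and was under the threshold in 13 of them. Cxcl10 (1.62 ± 0.23) was called in 24 and Cp, the copper ferroxidase ceruloplasmin (1.30 ± 0.20), in 24 of the 25. Over the acute-phase list 14 of 16 genes had a positive difference and 4 were called, with a median of 0.60. Over the interferon and MHC class I list 16 of 18 were positive and 2 called (Gbp3 and H2-D1), with a median of 0.44. These values stand against a median of -0.16 for all genes, of which 3727 of 12928 had a positive difference.

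The other genes with the largest positive differences were Pygm, muscle glycogen phosphorylase (1.41 ± 0.17), Sat1, which acetylates polyamines (1.31 ± 0.20), the MHC class I gene H2-Q4 (1.30 ± 0.21), Ier3 (1.28 ± 0.21) and the lipid phosphatase gene Plpp4 (1.19 ± 0.17). Pygm and Plpp4 were called in all 25 alternatives, Sat1 in 23, H2-Q4 in 18 and Ier3 in 16. Pygm had a difference of -1.16 with NAD+, not called under all 6 scalings, and of -2.57 without it. It was at 5.72, 5.96 and 4.27 FPKM in D_NAD against 12.8, 11.3 and 11.6 FPKM in p_NAD, and at 3.88 to 4.59 FPKM in D_ctrl against 24.7 to 26.1 FPKM in p_ctrl, so that the groups with and without NAD+ were further apart in the proliferating samples. Sat1 likewise was lower in p_NAD (16.6, 14.9 and 15.5 FPKM) than in p_ctrl (34.6, 25.02 and 28.5 FPKM).

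The largest negative difference was that of Tnc (-2.05 ± 0.27, limma adjusted p = 0.0119), called in all 25 alternatives. Tnc was at 0.48, 0.74 and 0.34 FPKM in D_NAD and 1.78, 1.88 and 1.49 FPKM in D_ctrl, and at 25.4, 27.5 and 27.2 FPKM in p_NAD and 18.0, 21.5 and 18.9 FPKM in p_ctrl. Nptx1, a secreted pentraxin of synapses (-1.32 ± 0.13), was at 98.1, 86.1 and 81.8 FPKM in p_NAD and 45.1, 54.0 and 51.9 FPKM in p_ctrl, and at 11.4, 11.4 and 11.2 FPKM in D_NAD against 16.9, 14.8 and 16.9 FPKM in D_ctrl. The others were Nwd1 (-1.55 ± 0.22), Tubb6, a beta-tubulin (-1.33 ± 0.25), Arrdc4, an arrestin-domain gene that glucose metabolites induce (-1.22 ± 0.23), the formin Inf2 (-1.14 ± 0.20), the sialyltransferase St3gal4 (-1.08 ± 0.13) and Mybl1 (-1.06 ± 0.21). Nptx1, Nwd1 and St3gal4 were called in all 25 alternatives, Tubb6 and Inf2 in 12, Arrdc4 in 9 and Mybl1 in 5.

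Over all tested genes 3727 of 12928 had a positive difference between responses, to be read beside the counts below. In the oligodendrocyte lineage list no difference was called, and 3 of 19 genes had a positive one. The median of this list was -0.45, and -0.24 without p_NAD_1. Without p_ctrl_1 1 gene of this list was called. Enpp6 rose by 3.80 with and 5.00 without NAD+. In the S phase list 2 of 34 genes had a positive difference and none was called, with a median of -0.51 against -0.16 for all genes, and no gene of the G2/M list was called. Sample p_ctrl_1 stood apart in Mki67, at 19.8 FPKM against 39.7 and 40.0 FPKM in the other p_ctrl samples, and its FPKM sum was 363330 against 311162 and 314233. Without it the S phase median was -0.33, with 5 of 34 genes positive and none called. Over all genes the median without p_ctrl_1 was -0.13, with 3896 of 12928 positive. Without p_NAD_1 1 gene of each of these 2 lists was called. Gfap rose by 6.10 with and 4.96 without NAD+, a difference of 1.14 ± 0.25 that missed the threshold (limma adjusted p = 0.0617). Its D_NAD samples were at 965 to 999 FPKM and its D_ctrl samples at 546 to 642 FPKM. For Dcx the responses were 1.50 and 1.42, with a difference of 0.08 ± 0.26, and for Tubb3 0.01 and 0.31, with a difference of -0.30 ± 0.19.

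**Figure D5:**
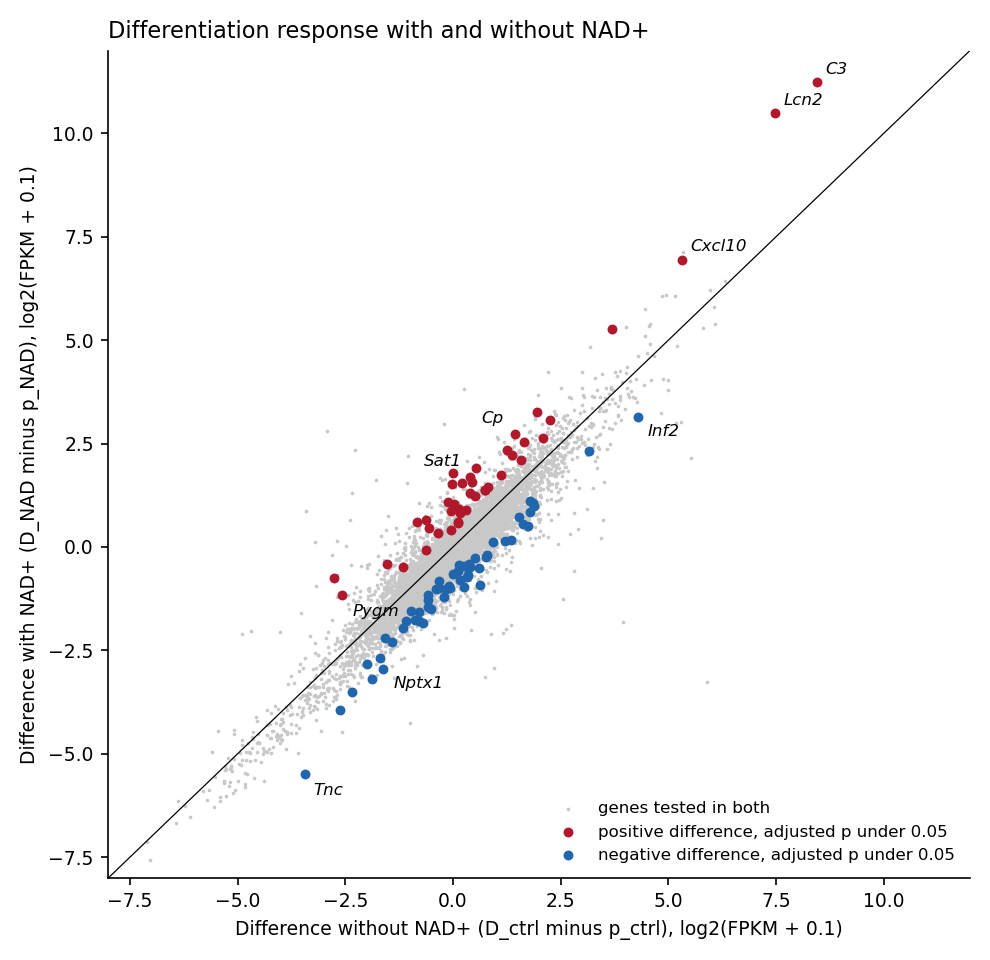
Differentiation response with NAD+ (y axis, D_NAD minus p_NAD) against the response without NAD+ (x axis, D_ctrl minus p_ctrl), both on the log2(FPKM + 0.1) scale, 1 point a gene and the line of equality in black. Red and blue points are genes whose difference between responses was called positive or negative. C3 and Lcn2 lie above the line at the upper end and Tnc below it at the lower end.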

How the data were processed

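RNA-seq of cultured mouse aNSPCs was deposited as 2 tables, 1 for the proliferating and 1 for the differentiation samples, which share 55401 gene identifiers. The authors deposited FPKM per gene and sample, rounded to 0.01. Per the study's methods, reads were mapped to mm10 with Hisat2, uniquely mapped reads were kept and FeatureCounts counted reads per gene. The program that made the FPKM values and the scaling between the tables were not given in the sources used here. The tables also hold the authors' own comparisons (fold changes on a log2 scale, p-values and q-values), which were not used. Read counts cannot be taken from these values, so no count test was run and no interval for counting error is given.

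Tables were joined by gene identifier, genes with a mean of 1 FPKM or more over the 6 columns were kept, 0.1 was added, and D_NAD was compared with p_NAD on the log2 scale by limma 3.58.1 in R 4.3.3 (moderated with a trend, two-sided, Benjamini-Hochberg adjustment over all tested genes). Fold changes on this scale understate the change of low genes. The difference of responses was a contrast in a fit of all 12 samples. An exact permutation test of 3 against 3 samples cannot give a p below 0.1. The alternatives were 6 scalings, other values added, other filters, a replicate block, other moderation and leaving out each sample. Gene lists and members were chosen with earlier results of these data known. Named genes were the 12 largest rises and falls (no overlap, mean of 10 FPKM or more in the higher group, above 0 in all 6 columns, protein-coding), up to 4 list members in each direction plus fixed members, and the 8 largest called differences of responses in each direction (mean of 10 FPKM or more in the highest group, above 0 in all 12 columns, protein-coding); other list members and overlapping genes were named after their values were seen. Promoter windows came from RefSeq on GRCm38.p6, and a gene with several windows counted once if any held the motif. The script was tested on simulated data. Some genes are not reported here.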

Additional observations from a re-analysis of the deposited data

Results flagged for a closer look

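On the deposited scale, the response to differentiation was called different with and without NAD+ in 98 genes by a limma test of the difference itself. Of these, 42 were positive and 56 negative, and 16 are listed here. These were the largest among those above 0 in all 12 samples, which leaves out Lcn2 (3.01). The difference, with NAD+ minus without it, was positive for C3 (2.79), Cxcl10 (1.62), Pygm (1.41), Sat1 (1.31), H2-Q4 (1.30), Cp (1.30), Ier3 (1.28) and Plpp4 (1.19), as differences on the log2(FPKM + 0.1) scale. For Tnc (-2.05), Nwd1 (-1.55), Tubb6 (-1.33), Nptx1 (-1.32), Arrdc4 (-1.22), Inf2 (-1.14), St3gal4 (-1.08) and Mybl1 (-1.06) the difference was negative. Ier3 differed by 0.65 upon differentiation with NAD+ and by -0.63 without it, Nwd1 by -0.93 and 0.62, and Pygm by -1.16 and -2.57. Pygm, Plpp4, Tnc, Nwd1, Nptx1 and St3gal4 were called in all 25 alternatives. Not all 16 genes were called under each of the 6 scalings: Mybl1 was called in 2, Arrdc4 in 3, Inf2 in 4, and C3, Ier3 and Tubb6 in 5.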

How the results depend on the processing

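Between D_NAD and p_NAD, 2690 genes were called higher and 6617 lower. Higher calls numbered 4148 with a minimum mean of 0.1 FPKM, 4230 with no filter, 1409 (of 5850 calls) with a minimum of 5 FPKM, 4394 with median-ratio scaling (4386 lower), 4161 with quantile normalization and 6854 with reference gene scaling (2173 lower). Requiring more than 1 on the log2 scale left 3868, of which 1131 were higher and 2737 lower. Leaving out each sample gave 2452 to 2686 higher and 6120 to 6595 lower.

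For the difference of responses, 98 calls (42 positive, 56 negative) became 189 (77 and 112) with 1 added, 63 (28 negative) with no filter, 162 (132 negative) with equal FPKM sums, 90 positive and 21 negative with median-ratio scaling, 89 and 34 with quantile normalization, 31 negative with reference gene scaling and 85 negative without moderation. Leaving out each sample gave 29 to 308 calls, 19 to 92 positive and 10 to 216 negative. The highest counts came without p_ctrl_1 (308) and the next without p_NAD_1 (176: 78 positive, 98 negative), and the lowest without p_NAD_3 (29). The cause was not tested.

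With the replicate block, 8970 genes were called between D_NAD and p_NAD, and 44 for the difference of responses (24 positive, 20 negative). Same-numbered samples were not paired by the labels, and their deviations correlated at -0.105, -0.0214 and -0.0117.

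Median differences changed sign with reference gene scaling for D-type cyclins and cell cycle exit (0.10), neural stem cell identity (0.12), Notch (0.28), BMP and ID (0.64), glycolysis (0.055), PI3K and Akt (0.63), apoptosis (0.40), the stress response (0.39) and NRF2 targets (0.28), with median-ratio scaling for BMP and ID (0.23) and PI3K and Akt (0.20), and with quantile normalization for BMP and ID (0.17), PI3K and Akt (0.21), apoptosis (0.013) and the stress response (0.018). With reference gene scaling Sox2 was at 0.12, Cdkn1c at 0.082, S100b at 0.36, Crem at 0.68, Vgf at 0.59 and Dll1 at 0.61. With quantile normalization S100b was at 0.023, Crem at 0.12, Vgf at 0.066 and Dll1 at 0.24, and with median-ratio scaling Crem was at 0.28, Vgf at 0.20 and Dll1 at 0.18. Crem was at 0.032 with equal sums without mitochondrial genes. With equal FPKM sums Egfr was at -0.10, Tubb3 at -0.11 and Sirt1 at -0.088. Leaving out each sample gave -0.015 to 0.11 for Egfr, -0.10 to 0.070 for Tubb3, -0.29 to 0.011 for Vgf and -0.074 to 0.12 for Sirt1. Depth is unknown, so low values have no counting error here.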

Other observations

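Among the most abundant nuclear-encoded mRNAs, genes outside the lists moved as well. Cpe, carboxypeptidase E of the secretory pathway, was at 3652, 3615 and 3768 FPKM in D_NAD against 714, 602 and 596 FPKM in p_NAD (2.53 ± 0.09 on the log2 scale). Itm2c and Ndrg2, both abundant in brain, were higher by 2.21 and 2.20. Ckb, brain creatine kinase, was lower, at 932, 867 and 808 FPKM against 2374, 2475 and 2503 FPKM (-1.50 ± 0.08). Igfbp2, a secreted binding protein for insulin-like growth factors, fell from 719, 756 and 655 FPKM to 35.5, 34.0 and 29.7 FPKM (-4.42 ± 0.09). In all 5 genes the groups were separate, as in 77.0% of all tested genes, and each had the same call under all 6 scalings. They were picked after their values were seen.

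Foxj1, the factor of ciliated ependymal cells, was at 28.1, 26.4 and 23.1 FPKM in D_NAD against 8.87, 8.78 and 9.55 FPKM in p_NAD (1.50 ± 0.09). Of 7 ependymal markers 3 were tested, and the others tested, Rsph1 (0.33) and Dynlrb2 (0.52), were not called. With means of at least 1 FPKM in the other group, 9 genes were listed at 0 in all D_NAD samples and 14 in all p_NAD samples.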
